A study of Mus musculus with 11 samples.

Results

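The 4 Janus kinases Jak1, Jak2, Jak3 and Tyk2 and the 5 STAT factors Stat3, Stat4, Stat5a, Stat5b and Stat6 were followed in the expression of mouse bone marrow cells that acquired a CSF3R and a CEBPA mutation in different orders. The genes were chosen by family name rather than by a threshold on their values, and each symbol matched a single Ensembl identifier in the deposited table. These 9 genes stood among 51912 in the table, and all 9 were among the 15703 genes that passed the filter on low counts. RNA was sequenced from 11 samples of lineage-negative C57BL/6 bone marrow, transduced with retrovirus, sorted for the fluorescent markers of both vectors and cultured without cytokines for 48 h. All 3 groups received 4-hydroxytamoxifen in that culture, which activates a Cre recombinase and switches on the gene in the inducible vector. In the study's text this Cre came from the donor cells of Rosa26 ERT2-Cre mice, and marrow for transduction was taken from donors 6 to 12 weeks old. CSF3R-only samples (n = 4) carried CSF3R T618I in the constitutive MIG vector and an inducible vector without an oncogene. CSF3R-first samples (n = 3) carried the same constitutive CSF3R T618I with CEBPA V314VW in the inducible vector, and CEBPA-first samples (n = 4) carried constitutive CEBPA V314VW with inducible CSF3R T618I. The mutations and vectors are those named in the study's text, since the labels give only the order of the genes. CSF3R was thus present in every group, and no group here lacked both oncogenes. Both genes came from retroviral vectors rather than from their own promoters, and the labels do not say whether replicates came from separate animals or cultures. The p-values therefore measure only the spread between these samples, which may be technical.

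Cytokine receptors of this class have no kinase of their own and carry JAK kinases on their cytoplasmic tails. Ligand binding, or a mutation that holds the receptor active as T618I does for CSF3R, brings the kinases together, and they phosphorylate the receptor and then the STAT factors that dock on it. Phosphorylated STATs pair up and enter the nucleus to act on their target genes, and granulocyte colony-stimulating factor, the ligand of CSF3R, is best known to act through Jak1, Jak2 and Stat3. RNA levels, which are what was measured, do not report on phosphorylation.

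Total counts ranged from 49499527 to 65937530 per sample in CSF3R-only, from 47905747 to 61069929 in CSF3R-first and from 49782847 to 72268346 in CEBPA-first. Among the member genes, Stat4 rested on 185 to 826 counts per sample and every other member on at least 3370. CSF3R-first replicate A stood apart from its group: the chi-square of its counts against replicates B and C, divided by the degrees of freedom, was 104 and 79.8 respectively, against 9.50 to 41.6 for all other pairs of replicates. It was the highest CSF3R-first sample for 8 of the 9 members, and replicate B was the lowest for 8, so the comparisons with CSF3R-first are also given without replicate A. The defining leukocyte genes of the labelled tissue (Ptprc, Spi1, Cd53 and Laptm5) summed to at least 2309 CPM (counts relative to each library's size after TMM scaling) in every sample, while the T cell genes Cd3e and Cd8a and the natural killer cell gene Ncr1 had no count in any sample.

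Stat5a and Stat5b, which carry signals of interleukin-3 and related cytokines, are neighbours and close copies. Stat5a lies at chr11:100859351-100885169 on the plus strand and Stat5b at chr11:100780731-100850724 on the minus strand of GRCm38, 8626 bases apart. Their aligned coding sequences were identical at 90.4% of 2335 bases, and 11.9% of all windows of 100 bases were the same in both, so a read from such a window could not be assigned by its sequence. The longest identical run spans 324 bases. Its start and the bases before it, coding bases 471 to 690 of both genes in the GENCODE annotation of GRCm38, are printed here from exons within chr11:100865426-100874347 (Stat5a, plus strand) and chr11:100798377-100801486 (Stat5b, minus strand). The capital marks the single base of these 220 at which the genes differ.

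Stat5a: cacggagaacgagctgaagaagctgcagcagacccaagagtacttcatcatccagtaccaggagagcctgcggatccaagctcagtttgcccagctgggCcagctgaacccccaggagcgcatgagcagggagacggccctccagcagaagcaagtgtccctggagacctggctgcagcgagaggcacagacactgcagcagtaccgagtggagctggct

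Stat5b: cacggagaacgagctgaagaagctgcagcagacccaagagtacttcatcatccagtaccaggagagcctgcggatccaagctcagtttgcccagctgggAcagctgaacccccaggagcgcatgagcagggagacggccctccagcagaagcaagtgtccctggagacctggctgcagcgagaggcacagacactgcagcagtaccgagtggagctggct

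Promoters of all 9 members were matched by symbol to the RefSeq promoter set of GRCm38.p6 (250 bases before to 50 bases after the start), which held 12 promoters for them. They were searched on both strands for TTCNNNGAA and TTCNNNNGAA, the palindromic letters that STAT dimers prefer, for TTGCNNAA, the letters of C/EBP sites, and for GAGGAA, the core that the myeloid factor PU.1 prefers. None of the 12 promoters held the STAT or C/EBP letters, which occur in 8.30%, 6.95% and 10.8% of the 32851 promoters of this length. GAGGAA or its complement TTCCTC occurs in 28.3% of them and was found in the promoter of Stat6 and in 1 of the promoters of Stat5a. A match describes letters in this window and is not a binding site. Stat4 and Stat6 fell most, and 1 of the 2 promoters of Stat4, the promoter of Stat6 and the Stat5a promoter with a match are printed here, with each match in capitals. They lie at chr1:51986898-51987197, chr10:127642736-127643035 and chr11:100860234-100860533, all on the plus strand.

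Stat4: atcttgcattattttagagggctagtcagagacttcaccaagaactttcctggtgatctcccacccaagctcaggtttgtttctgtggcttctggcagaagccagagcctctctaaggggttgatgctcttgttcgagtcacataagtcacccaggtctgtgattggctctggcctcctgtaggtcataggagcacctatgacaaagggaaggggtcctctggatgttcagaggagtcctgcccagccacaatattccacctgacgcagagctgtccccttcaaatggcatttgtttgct

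Stat6: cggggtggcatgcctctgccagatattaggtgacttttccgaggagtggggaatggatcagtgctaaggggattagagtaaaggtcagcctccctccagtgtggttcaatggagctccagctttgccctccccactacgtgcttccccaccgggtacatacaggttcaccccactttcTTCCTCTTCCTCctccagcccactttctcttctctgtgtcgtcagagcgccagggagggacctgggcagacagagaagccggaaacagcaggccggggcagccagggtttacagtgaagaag

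Stat5a: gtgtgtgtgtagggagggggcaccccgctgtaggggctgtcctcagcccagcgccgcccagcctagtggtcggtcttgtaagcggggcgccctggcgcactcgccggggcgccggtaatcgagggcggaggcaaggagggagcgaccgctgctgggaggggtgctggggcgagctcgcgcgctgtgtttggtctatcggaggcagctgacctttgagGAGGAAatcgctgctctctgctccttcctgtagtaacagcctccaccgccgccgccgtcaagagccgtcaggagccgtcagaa

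In Stat6 the matches began 72 and 66 bases before the start and adjoined each other, and in Stat5a the match began 33 bases before it. Neither Stat4 promoter held any of the letters searched.

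The first comparison asked how far cells that received CEBPA V314VW before CSF3R T618I differed from cells with CSF3R T618I alone. Expression was given as TMM-normalized CPM, and each gene was tested by edgeR's quasi-likelihood test, with p adjusted over all 15703 genes by the method of Benjamini and Hochberg. Of the 9 members, 8 were lower in CEBPA-first at an adjusted p below 0.05 (Jak1, Jak2, Jak3, Tyk2, Stat3, Stat4, Stat5b and Stat6), none was higher, and Stat5a did not pass. In this comparison 72% of all tested genes passed in either direction, 36.6% as lower and 35.4% as higher. The median log2 fold change was -0.58 over the members and -0.0045 over all tested genes. Only Stat4 and Stat6 also went beyond 1 log2 unit, which 19% of all genes did in the same direction. The same 8 members had CEBPA-first samples that all lay below the CSF3R-only samples, as 34.5% of all genes had.

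**Figure D1:**
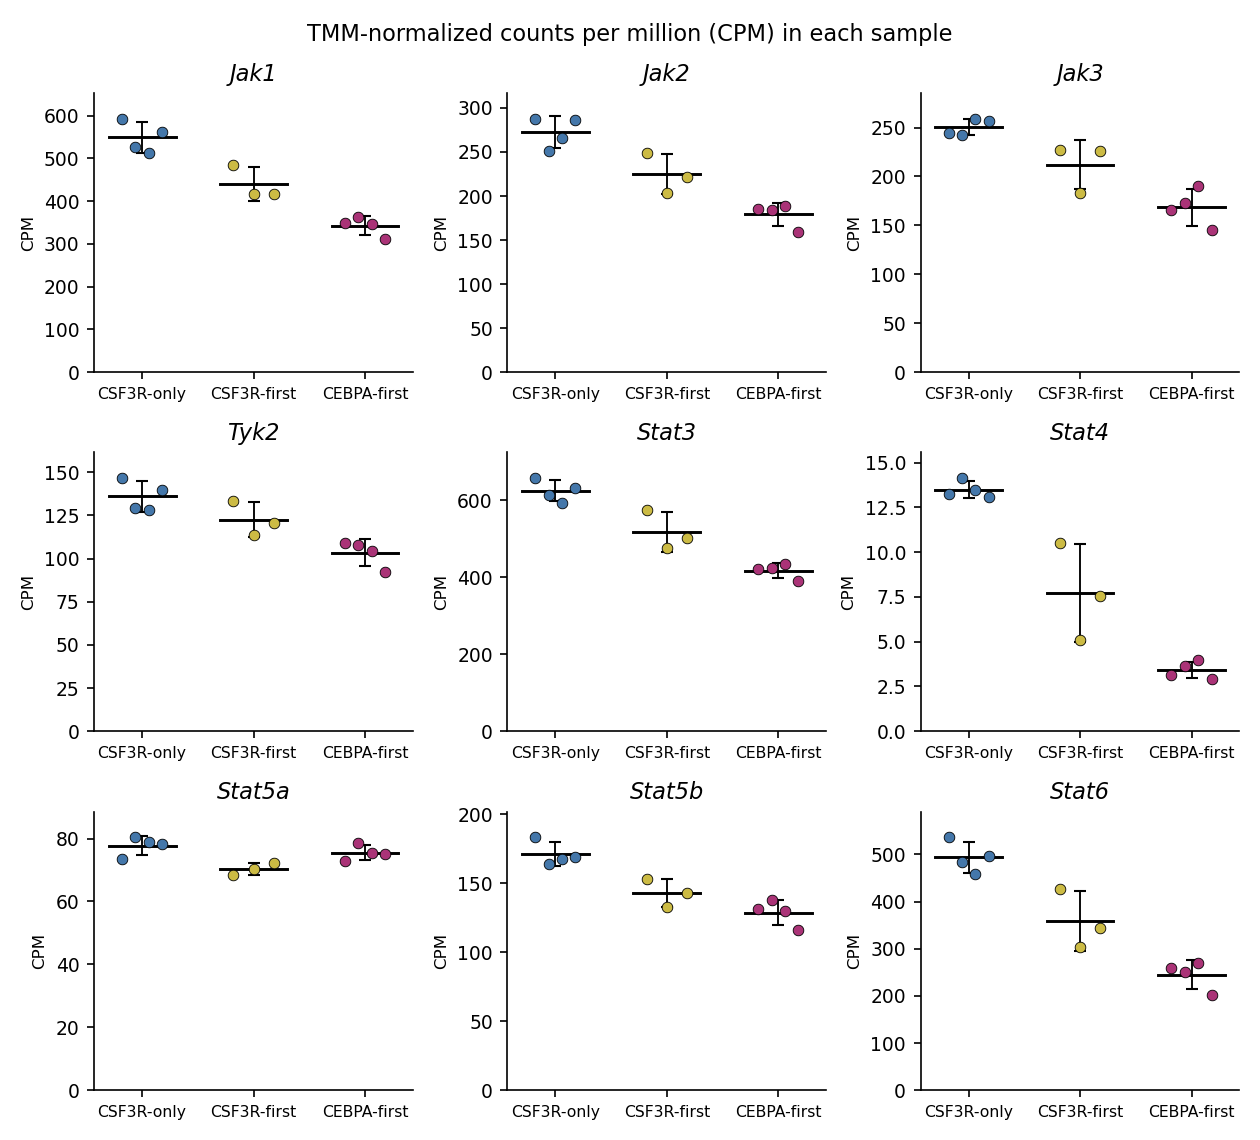
TMM-normalized CPM (vertical axes, linear and starting at 0) of the 4 JAK and 5 STAT genes in each sample of the 3 groups. Points are samples, horizontal lines are group means and error bars are SD. CEBPA-first samples lie below all CSF3R-only samples for every member but Stat5a, whose samples sit between 68.4 and 80.5 CPM in all groups.

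Jak1, which pairs with other JAKs on interferon, interleukin-6 and common gamma chain receptors, lies at chr4:101152367-101265282 on the minus strand. It was at 593, 528, 513 and 562 CPM in CSF3R-only replicates A to D, at 486, 417 and 417 CPM in CSF3R-first replicates A to C and at 349, 363, 347 and 311 CPM in CEBPA-first replicates A to D. The 3 groups did not overlap, and the CSF3R-first samples lay between the others. Jak1 fell by 0.68 on the log2 scale in CEBPA-first (SE 0.076, adjusted p = 3.45e-06), the steepest fall among the kinases by point estimate.

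Jak2, the kinase of the erythropoietin and interleukin-3 receptors, lies at chr19:29251828-29313080 on the plus strand. Its samples read 288, 251, 266 and 286 CPM in CSF3R-only, 249, 204 and 222 CPM in CSF3R-first and 185, 184, 188 and 159 CPM in CEBPA-first, in the order of the replicate letters. CEBPA-first replicate D was lower than the other 3 samples of its group, which lay within a few CPM of each other. The log2 fold change of Jak2 against CSF3R-only was -0.61 (SE 0.079, adjusted p = 1.41e-05), and it was -0.55 to -0.65 when each sample was left out in turn.

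Jak3, which serves the common gamma chain receptors of lymphocytes, lies at chr8:71676296-71690575 on the plus strand. It stood at 245, 242, 259 and 257 CPM in CSF3R-only, 227, 183 and 226 CPM in CSF3R-first and 166, 173, 190 and 145 CPM in CEBPA-first. The CEBPA-first samples were all below the CSF3R-only samples but overlapped those of CSF3R-first, whose replicate B was lower than CEBPA-first replicate C. Jak3 fell by 0.57 on the log2 scale in CEBPA-first against CSF3R-only (SE 0.089, adjusted p = 6.34e-05). It shares 7.55% of its exon bases with Insl3 on the same strand, a gene with 39 to 111 counts per sample.

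Tyk2, the partner of Jak1 and Jak2 on interferon and interleukin-12 receptors, lies at chr9:21104068-21131243 on the minus strand. Its values were 147, 129, 128 and 140 CPM in CSF3R-only, 133, 114 and 120 CPM in CSF3R-first and 109, 108, 104 and 92.2 CPM in CEBPA-first. CSF3R-first overlapped CSF3R-only, while CEBPA-first lay below both. Tyk2 had the smallest fall of the kinases by point estimate, with a log2 fold change of -0.40 (SE 0.073, adjusted p = 0.000294) in CEBPA-first against CSF3R-only.

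Stat3, the main STAT downstream of CSF3R and the interleukin-6 family, lies at chr11:100885098-100939540 on the minus strand and meets Stat5a tail to tail, with 72 shared bases. It measured 659, 615, 594 and 632 CPM in CSF3R-only, 576, 477 and 501 CPM in CSF3R-first and 420, 425, 434 and 389 CPM in CEBPA-first. No group overlapped another. Stat3 fell by 0.58 on the log2 scale in CEBPA-first against CSF3R-only (SE 0.071, adjusted p = 7.47e-06).

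Stat4, which carries interleukin-12 signals in T and natural killer cells and is also found in myeloid cells, lies at chr1:51987148-52107189 on the plus strand. It was at 13.3, 14.2, 13.5 and 13.1 CPM in CSF3R-only, at 10.5, 5.07 and 7.55 CPM in CSF3R-first and at 3.17, 3.61, 3.96 and 2.91 CPM in CEBPA-first. The CSF3R-only samples were tightly grouped, the CSF3R-first samples were spread widely between the other groups, and no groups overlapped. Stat4 was 3.97-fold lower in CEBPA-first than with CSF3R alone (log2 fold change -1.99, SE 0.18, adjusted p = 6.16e-07), the largest change of any member. Its exons share 26.7% of their bases with Gm28177 on the same strand, which itself had 0 to 2 counts per sample.

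Stat4 and Jak3 are best known from lymphoid cells, and the lymphoid marker lists are given beside them. The sum of 7 T cell genes was 1.75 to 2.62 CPM in CSF3R-only, 2.03 to 2.80 CPM in CSF3R-first and 3.68 to 5.17 CPM in CEBPA-first. The 2 T cell genes that passed the filter went opposite ways between CEBPA-first and CSF3R-only: Lck, which made up most of the sum, was at 4.32 against 1.75 CPM (adjusted p = 3.31e-05), and Cd3d at 0.047 against 0.24 CPM (adjusted p = 0.000627). The sum of 7 natural killer cell genes was 76.7 to 135 CPM in CSF3R-only, 44.4 to 73.6 CPM in CSF3R-first and 44.1 to 59.8 CPM in CEBPA-first, and 6 B cell genes summed to at most 6.97 CPM in any sample. Of the natural killer list 4 genes passed the filter, of which 1 was higher and 2 were lower in CEBPA-first against CSF3R-only. The part of these cells in the Stat4 and Jak3 results was not tested.

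Stat6, the STAT of interleukin-4 and interleukin-13, lies at chr10:127642986-127660957 on the plus strand. Its levels were 537, 485, 458 and 497 CPM in CSF3R-only, 427, 303 and 344 CPM in CSF3R-first and 260, 250, 269 and 201 CPM in CEBPA-first. The groups did not overlap, and CEBPA-first replicate D was the lowest of all samples. Stat6 was 2.02-fold lower in CEBPA-first than with CSF3R alone (log2 fold change -1.01, SE 0.11, adjusted p = 3.33e-06), which placed it at the threshold of 1 log2 unit. It was -0.93 without CEBPA-first replicate D, -0.97 without CSF3R-only replicate A and -0.88 after scaling to total counts, each with an adjusted p below 0.05.

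Stat5a was the member whose change did not pass. It was at 73.3, 80.5, 78.8 and 78.3 CPM in CSF3R-only, 68.4, 70.3 and 72.3 CPM in CSF3R-first and 72.9, 78.5, 75.5 and 75 CPM in CEBPA-first. CEBPA-first and CSF3R-only overlapped throughout, and the CSF3R-first samples lay below both. The log2 fold change between CEBPA-first and CSF3R-only was -0.043 (95% interval -0.15 to 0.066, adjusted p = 0.458), and its sign turned to 0.090 after scaling to total counts and to 0.031 without the filter on low counts. Scaling to total counts moved the median of all genes in this comparison from -0.0045 to 0.13.

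Stat5b, its copy, was at 184, 164, 168 and 169 CPM in CSF3R-only, 153, 133 and 143 CPM in CSF3R-first and 131, 138, 130 and 116 CPM in CEBPA-first. All CEBPA-first samples lay below the CSF3R-only samples and overlapped those of CSF3R-first. Stat5b fell by 0.41 on the log2 scale in CEBPA-first against CSF3R-only (SE 0.068, adjusted p = 0.000112). The ratio of Stat5b to Stat5a CPM was 2.21 ± 0.21 (SD, n = 4) in CSF3R-only. It was 2.04 ± 0.18 (n = 3) for CSF3R-first and 1.71 ± 0.11 (n = 4) for CEBPA-first. The highest ratio in CEBPA-first, 1.80, was below the lowest in either other group, 2.03 in CSF3R-only and 1.89 in CSF3R-first. This ratio was computed after the values of both genes had been seen and has no test. With the counts of Stat5a and Stat5b added up as a single gene, the log2 fold change was -0.28 (adjusted p = 0.000454).

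**Figure D2:**
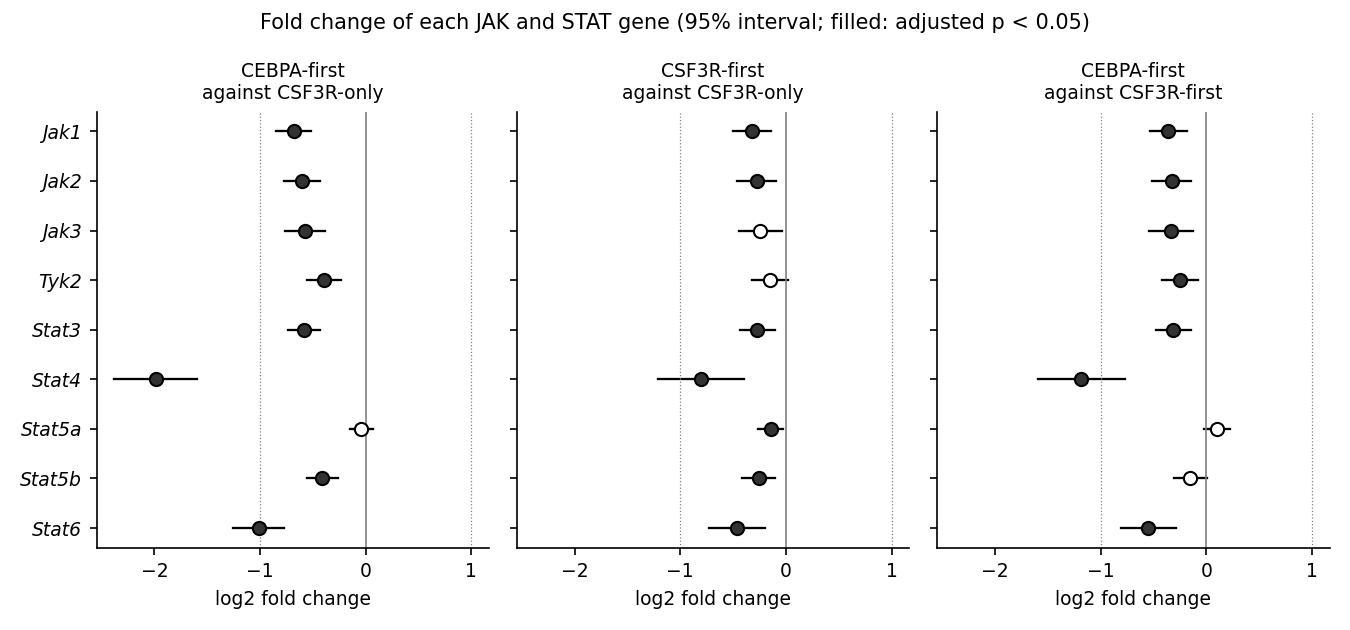
Log2 fold change (horizontal axis) of each JAK and STAT gene in the 3 comparisons, with its 95% interval from edgeR's fit. Filled points passed an adjusted p of 0.05 and dotted lines mark 1 log2 unit in either direction. Stat4 lies farthest from 0 in every panel, and Stat5a is the only member with a point above 0, in CEBPA-first against CSF3R-first.

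The second comparison asked what CEBPA V314VW changed when it was switched on in cells that already expressed CSF3R T618I. In CSF3R-first against CSF3R-only, 7 of the 9 members were lower at an adjusted p below 0.05, none was higher, and Jak3 and Tyk2 did not pass. In this comparison 42.7% of all tested genes passed, 21.1% as lower and 21.6% as higher. The median log2 fold change was -0.27 over the members and -0.022 over all genes. The comparison shares the CSF3R-only samples with the first, so its values stand beside the earlier ones and are not independent of them.

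Stat4 again had the largest log2 fold change, -0.81 (SE 0.19, adjusted p = 0.00465), followed by Stat6 with -0.46 (SE 0.12, adjusted p = 0.0084). Neither went beyond 1 log2 unit, as 4.53% of all genes did on the lower side. Jak1 fell by 0.32 on the log2 scale (adjusted p = 0.00772), Jak2 by 0.28 (adjusted p = 0.0197), Stat3 by 0.27 (adjusted p = 0.0128) and Stat5b by 0.26 (adjusted p = 0.013). Stat5a had a log2 fold change of -0.15 (SE 0.055, adjusted p = 0.0481), close to the threshold. The call was lost when the fit held only the compared groups (adjusted p = 0.139), with a replicate block (0.0514), without the filter on low counts (log2 fold change -0.097, adjusted p = 0.458) and after scaling to total counts (-0.060, adjusted p = 0.49), and it was kept in 1 of the 11 fits that left out a sample. For Jak3 the log2 fold change was -0.24 (95% interval -0.45 to -0.034, adjusted p = 0.0586), and for Tyk2 it was -0.15 (95% interval -0.32 to 0.021, adjusted p = 0.145). With a sample left out these ranged from -0.29 to -0.14 for Jak3 and from -0.22 to -0.099 for Tyk2. In the other alternative runs they ranged from -0.28 to -0.16 for Jak3 and from -0.17 to -0.069 for Tyk2. Jak3 missed the threshold although its CSF3R-first samples all lay below those of CSF3R-only, as those of 8 members did and as 21.4% of all genes did. With a replicate block Jak3 passed (log2 fold change -0.28, adjusted p = 0.023).

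The number of calls in this comparison depended on single samples. Without CSF3R-first replicate A, the sample that stood apart, 8 members were lower, all but Stat5a, and Stat4 reached a log2 fold change of -1.09. Without replicate B or without replicate C, 3 members passed: Jak1, Stat4 and Stat6. Calls over all genes moved as well, from 6703 of 15703 tested with all samples. They were 7499 of 16122 without replicate A, 4620 of 16100 without B and 5323 of 15947 without C. Every member kept a negative log2 fold change in each of these fits.

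The third comparison set the orders of acquisition against each other, with both mutations present in both groups. In CEBPA-first CSF3R T618I came from the inducible vector, and in the other groups from the constitutive vector. Order, vector and time of exposure to CSF3R T618I therefore cannot be told apart in either comparison with CEBPA-first. Of the 9 members, 7 were lower in CEBPA-first than in CSF3R-first at an adjusted p below 0.05, and Stat5a and Stat5b did not pass. Over all tested genes 48.3% passed, 24.3% as lower and 24% as higher. The median log2 fold change was -0.33 over the members and 0.00052 over all genes. Both groups had entered the comparisons above, which therefore share samples with this one.

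Stat4 was lower by 1.18 on the log2 scale (SE 0.19, adjusted p = 0.000371), or 2.27-fold, and was the only member beyond 1 log2 unit, as 10.3% of all genes were in this direction. Without CSF3R-first replicate A its log2 fold change was -0.89. Stat6 had a log2 fold change of -0.55 (SE 0.12, adjusted p = 0.0026), or -0.40 without replicate A. The kinases moved within a narrow range, from -0.36 for Jak1 (adjusted p = 0.0031) to -0.25 for Tyk2 (adjusted p = 0.0215), with Jak2 and Jak3 both at -0.33. Without replicate A, Jak3 and Tyk2 no longer passed (adjusted p = 0.0501 and 0.108), and 5 members were left. Over all genes 6032 of 16122 passed in that fit, against 7578 of 15703 with all samples.

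For Stat5b the log2 fold change between the orders was -0.15 (95% interval -0.31 to 0.0066, adjusted p = 0.105). For Stat5a it was 0.10 (95% interval -0.017 to 0.22, adjusted p = 0.143), although every CEBPA-first sample was above every CSF3R-first sample. Stat5a was the only member with groups separated in that direction, which 27.4% of all genes showed, while 6 members had CEBPA-first samples that all lay lower, which 24.8% of all genes showed.

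CSF3R-first means lay between those of the other groups on the log2 CPM scale for 8 of the 9 members (88.9%), against 76.1% of all tested genes. On a scale from 0 at the CSF3R-only mean to 1 at the CEBPA-first mean, the median position of these 8 members was 0.47, and single members ranged from 0.38 for Tyk2 to 0.63 for Stat5b. The CSF3R-first samples differed in this position more than the members did. The median was 0.21 in replicate A, 0.50 in replicate C and 0.69 in replicate B. Stat5a was the exception, with its lowest mean in CSF3R-first.

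Levels were then compared between genes as CPM per kilobase of exon. In CSF3R-only the kinases followed the order Jak1 (76.0 ± 4.93, SD, n = 4), Jak2, Jak3 and Tyk2, and the same order held in both other groups, although Jak2 and Jak3 overlapped in CSF3R-first and CEBPA-first. With the longest transcript as the length instead of all exons, Jak3 came before Jak2 in every group. Among the STATs the order per kilobase of exon was Stat6, Stat3, Stat5b, Stat5a and Stat4 in all 3 groups, and no neighbours in it overlapped. By the longest transcript Stat3 came before Stat6 in CEBPA-first only, at 69.0 against 64.9 CPM per kilobase. The summed level of the 4 kinases was 197 ± 9.31 CPM per kilobase in CSF3R-only, 163 ± 14.9 with CSF3R first and 130 ± 9.71 with CEBPA first (SD, n = 4, 3 and 4). The summed level of the 5 STATs went from 223 ± 11.3 through 173 ± 22.1 to 134 ± 10.4.

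The make-up of each family was described by the share of each gene in its family's counts per kilobase. Stat6 made up 50.3% ± 0.83 of the STAT sum in CSF3R-only, 46.7% ± 2.27 of it in CSF3R-first and 41.4% ± 2.12 of it in CEBPA-first (SD, n = 4, 3 and 4, as for the shares that follow). Stat5a went from 4.90% ± 0.41 through 5.75% ± 0.80 to 7.92% ± 0.66, and Stat5b from 13.8% ± 0.38 through 15.0% ± 0.84 to 17.4% ± 0.64. Stat3 had 29.4% ± 0.26, 31.4% ± 0.97 and 32.7% ± 1.12, and Stat4 had 1.57% ± 0.11, 1.13% ± 0.26 and 0.66% ± 0.055, in the same order of groups. The mean shares of Stat6 and Stat4 were lower in CEBPA-first than in the other groups and those of the other 3 STATs were higher. No difference in share passed the adjusted test given next, which a share could hardly pass with so few samples.

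Among the kinases Tyk2 went from 10.1% ± 0.24 to 11.6% ± 0.38 between CSF3R-only and CEBPA-first, with Jak1 at 38.6% ± 1.09 and 36.6% ± 0.95. Jak2 stayed at 27.5% in both, and the Jak3 shares, 23.8% ± 1.32 and 24.3% ± 1.25, overlapped. In two-sided exact permutation tests of the difference in mean share, 14 of 27 tests reached an unadjusted p of 0.0286, the smallest that 4 against 4 or 4 against 3 samples can give. In CEBPA-first against CSF3R-only these were Tyk2 and all 5 STATs. After Benjamini-Hochberg adjustment over the 27 tests the smallest p was 0.0551, so 0 of them passed. With 0.0286 as the smallest p, no share could pass unless many other tests also reached it, however far apart its groups lay. The adjusted result therefore cannot decide whether any share differed.

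**Figure D3:**
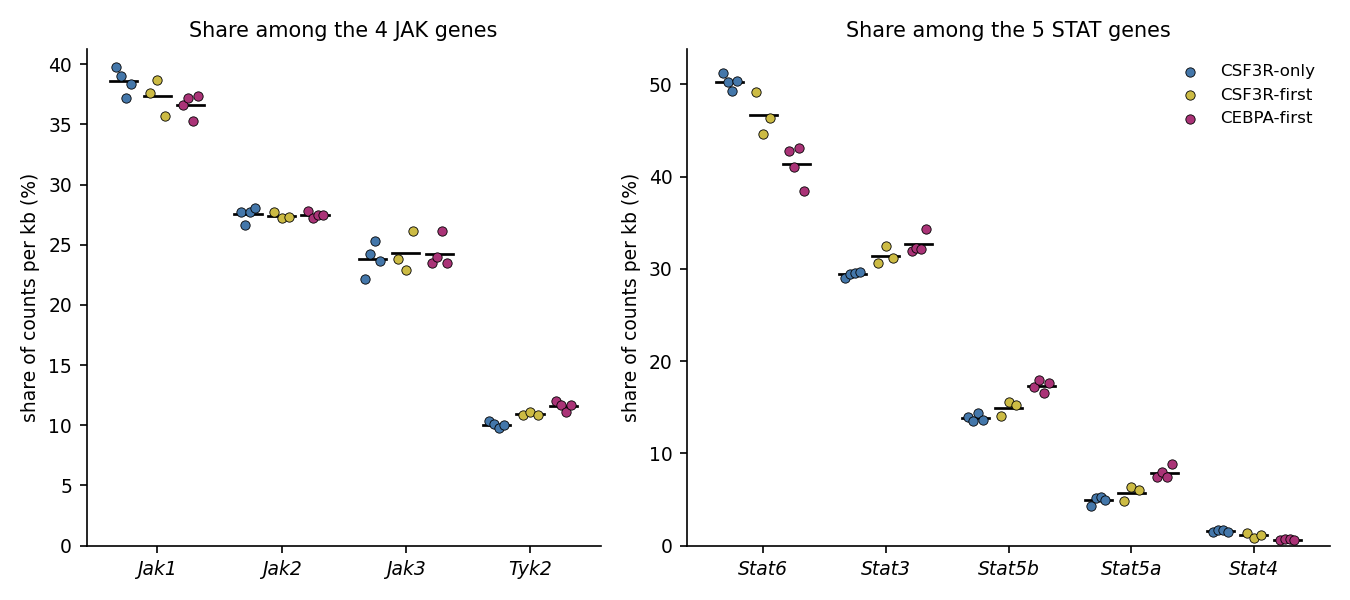
Share of each gene (vertical axes, percent, starting at 0) in the summed counts per kilobase of exon of the 4 JAK genes (left) and of the 5 STAT genes (right). Points are samples coloured by group and lines are group means. The mean Stat6 share is 50.3% in CSF3R-only and 41.4% in CEBPA-first, and the JAK shares move by at most a few percentage points. The Stat6 difference did not pass the adjusted test (p = 0.0551, exact permutation), which a share could hardly pass with so few samples.

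The members' surroundings in the pathway were read from lists of receptors, interferon-response partners, inhibitors, adaptors and target genes. Of 30 receptors that use JAKs, 21 (70%) were lower in CEBPA-first against CSF3R-only at an adjusted p below 0.05, 4 were higher and 5 did not pass, with a median log2 fold change of -0.94. Of all tested genes 36.6% were lower and 35.4% higher. In CSF3R-first against CSF3R-only 18 receptors (60%) were lower and 2 (6.67%) higher, where 21.1% and 21.6% of all genes were. In CEBPA-first against CSF3R-first 18 (60%) were lower and 3 (10%) higher, where 24.3% and 24% of all genes were. Lifr and Osmr, which pair with gp130 and signal through Jak1 and Stat3, had log2 fold changes of -2.86 and -3.09. Il6st, which encodes gp130 itself, rose from 97.2 ± 6.01 through 167 ± 7.63 to 279 ± 29.3 CPM (log2 fold change 1.52, adjusted p = 6.06e-09). Il12rb2, a subunit of the receptor upstream of Tyk2 and Stat4, rose from 2.02 ± 0.18 to 3.35 ± 0.24 CPM (log2 fold change 0.73, adjusted p = 0.000132). Il2rb, the other receptor among the largest rises, rested on 0 to 11 counts per sample in CSF3R-only and 14 to 21 in CEBPA-first.

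Mouse Csf3r itself was at 846 ± 94.9 CPM in CSF3R-only, 516 ± 118 CPM in CSF3R-first and 154 ± 16.1 CPM in CEBPA-first, a log2 fold change of -2.46 (adjusted p = 8.16e-09) between the ends. Mouse Cebpa was at 87.2 ± 6.98, 131 ± 10.4 and 167 ± 6.12 CPM in that order of groups. How many reads of the vectors' CSF3R and CEBPA were counted on these mouse genes was not tested. For Jak3, Stat6 and Stat4, 4 receptor genes known to use them were also read out, chosen for that pairing after their values had been seen. Il2rg, the common gamma chain that binds Jak3 and also forms part of the interleukin-4 receptor, was at 139 ± 11.4 CPM in CSF3R-only, 104 ± 19.2 CPM in CSF3R-first and 73.8 ± 2.86 CPM in CEBPA-first. Il4ra, upstream of Stat6, was at 1118 ± 59.8, 1108 ± 47.4 and 1079 ± 84.0 CPM, and its log2 fold change between the ends was -0.052 (adjusted p = 0.539). Il12rb1, upstream of Stat4, was at 5.51 ± 1.21, 5.05 ± 0.22 and 6.01 ± 0.73 CPM (log2 fold change 0.13, adjusted p = 0.456). Il13ra1, the interleukin-13 receptor subunit also upstream of Stat6, fell from 231 ± 12.3 to 62.7 ± 16.5 CPM between the ends (log2 fold change -1.88, adjusted p = 1.7e-06). The receptor genes upstream of Stat6 and Stat4 therefore did not move alike.

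Stat2 and its partner Irf9, which act in the interferon response, were lower in all 3 comparisons. Stat2 stood at 60.1 ± 3.65 CPM in CSF3R-only, 48.1 ± 2.12 CPM in CSF3R-first and 38.0 ± 2.92 CPM in CEBPA-first. The log2 fold changes in CEBPA-first against CSF3R-only were -0.66 for Stat2 and -0.99 for Irf9.

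The 8 SOCS and CISH genes form a family of which some members are induced by STATs and dampen cytokine signals. Of the 8, 5 (62.5%) were higher in CEBPA-first against CSF3R-only and 3 (37.5%) were lower, beside 35.4% and 36.6% of all tested genes. Their median log2 fold change was 0.23. Socs2 rose from 5.65 ± 1.08 CPM in CSF3R-only through 11.3 ± 3.33 in CSF3R-first to 88.6 ± 6.86 in CEBPA-first (log2 fold change 3.97, adjusted p = 1.95e-09). Socs7 and Socs1 rose by 0.70 and 0.50 log2 units. Socs3, the inhibitor of gp130 and CSF3R signals, fell from 617 ± 36.9 through 414 ± 70.6 to 233 ± 28.6 CPM (log2 fold change -1.41, adjusted p = 1.75e-07). Socs5 and Cish fell by 1.05 and 1.01 log2 units. Of these inhibitors 3 (37.5%) were higher and 3 (37.5%) lower in CSF3R-first against CSF3R-only, beside 21.6% and 21.1% of all genes. In CEBPA-first against CSF3R-first 4 (50%) were higher and 3 (37.5%) lower, beside 24% and 24.3% of all genes. The counts of higher inhibitors in both comparisons rested on single samples. In CSF3R-first against CSF3R-only the 3 became 1 without CSF3R-only replicate A, B or D, without CEBPA-first replicate B or C, without CSF3R-first replicate B, or in a fit of the compared groups alone. In CEBPA-first against CSF3R-first the 4 became 2 without CSF3R-first replicate A.

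Of 16 phosphatases, PIAS proteins and adaptors that act on JAKs and STATs, 9 (56.2%) were lower and 4 (25%) higher in CEBPA-first against CSF3R-only, beside 36.6% and 35.4% of all tested genes, with a median log2 fold change of -0.20. Ptpn1, a phosphatase of Jak2 and Tyk2, fell from 442 ± 29.7 to 167 ± 12.4 CPM (log2 fold change -1.41, adjusted p = 1.24e-07). Ptpn6, the SHP-1 phosphatase of blood cells, had a log2 fold change of -0.96 and Pias3, an inhibitor of Stat3, of -1.02. Ptpn2, Sh2b1 and Pias2 rose by 0.46, 0.58 and 0.37 log2 units. Of this list 6 (37.5%) were lower and 2 (12.5%) higher in CSF3R-first against CSF3R-only, beside 21.1% and 21.6% of all genes. Between the orders 7 (43.8%) were lower and 4 (25%) higher in CEBPA-first, beside 24.3% and 24% of all genes. Without CSF3R-first replicate C the 6 lower genes became 2, and the 4 higher genes between the orders became 2 without that sample or without CEBPA-first replicate A.

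Of 18 genes known as STAT targets, 13 (72.2%) were lower and 4 (22.2%) higher in CEBPA-first against CSF3R-only, beside 36.6% and 35.4% of all tested genes, with a median log2 fold change of -1.05. Lcn2, a neutrophil granule gene, fell from 2365 ± 269 through 1176 ± 374 to 342 ± 50.7 CPM (log2 fold change -2.79, adjusted p = 2.81e-08). Bcl6, a repressor also known as a Stat5 target, and Cebpb, a C/EBP factor of emergency granulopoiesis, had log2 fold changes of -2.43 and -1.69. Other targets were higher: the growth regulator Myc rose from 158 ± 27.7 to 465 ± 16.3 CPM (log2 fold change 1.56, adjusted p = 2.25e-07), the cyclin gene Ccnd2 by 1.65 and the kinase gene Pim1 by 0.69 log2 units. The cyclin D and Pim genes of the list were mixed in direction: Pim3 also rose, by 0.46, and Ccnd1, Ccnd3 and Pim2 fell by 1.11, 0.61 and 0.55 log2 units, all 4 named after their values were seen. In CSF3R-first against CSF3R-only 11 targets (61.1%) were lower and 3 (16.7%) higher, beside 21.1% and 21.6% of all genes. In CEBPA-first against CSF3R-first 11 (61.1%) were lower and 4 (22.2%) higher, beside 24.3% and 24% of all genes.

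**Figure D4:**
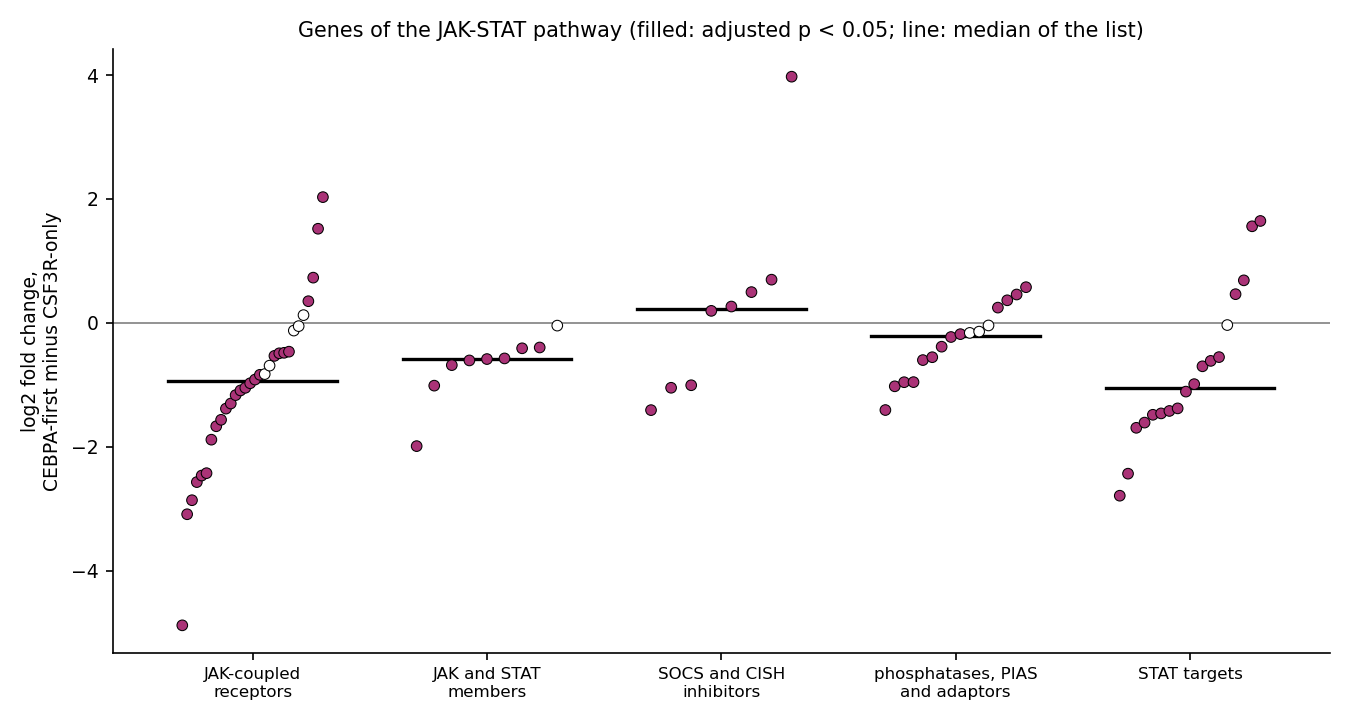
Log2 fold change of CEBPA-first against CSF3R-only (vertical axis) for each gene of 5 sets from the JAK-STAT pathway, ordered by value within a set. Filled points passed an adjusted p of 0.05 and lines are the medians of the sets. The members cluster between -2 and 0 with a median of -0.58, while the SOCS and CISH inhibitors reach from -1.41 for Socs3 to 3.97 for Socs2.

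The genes whose log2 CPM followed that of Stat4, the member that fell most, most closely over the 11 samples were Selplg (Pearson r = 0.994), which encodes a selectin ligand of leukocytes, Bcl3 (0.994), which encodes a nuclear partner of NF-kappaB, and Zyx (0.992), which encodes a focal adhesion protein. They were taken from 5925 genes with a mean log2 CPM of at least 5, and the samples share their groups, so the values are a description. Selplg was at 870 ± 34.3 CPM in CSF3R-only, 564 ± 115 CPM in CSF3R-first and 326 ± 26.9 CPM in CEBPA-first. No member rose, so no such genes were sought for a rise.

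Sums of marker genes fell along with the members for some blood lineages and not for others. Summed over 11 neutrophil genes, CPM ranged from 25758 to 30760 in CSF3R-only, from 18360 to 28080 in CSF3R-first and from 12402 to 14267 in CEBPA-first. The neutrophil genes did not move alike: 7 were lower and 4 higher in CEBPA-first against CSF3R-only. S100a8 and S100a9, granulocyte genes of late maturation, had log2 fold changes of -2.65 and -2.86, and the primary granule genes Mpo, Elane, Ctsg and Prtn3 of 0.88 for Mpo to 1.51 for Prtn3. Summed over 9 monocyte and macrophage genes the ranges were 2663 to 3387 CPM, 1395 to 2444 CPM and 642 to 966 CPM. For 5 megakaryocyte genes they were 641 to 867 CPM, 244 to 428 CPM and 103 to 151 CPM. For 7 mast cell and basophil genes they were 2108 to 3080 CPM, 1305 to 1590 CPM and 1369 to 1799 CPM, and for 4 eosinophil genes 195 to 306 CPM, 38.2 to 102 CPM and 15.7 to 23.0 CPM. Of the mast cell and basophil genes 1 was higher, 3 were lower and 3 did not pass in CEBPA-first against CSF3R-only. The sums of 6 erythroid genes overlapped, at 380 to 502 CPM, 318 to 556 CPM and 430 to 546 CPM. Of these erythroid genes 4 were lower and 1 was higher in CEBPA-first against CSF3R-only. The leukocyte genes named above went from 4331 to 4802 CPM in CSF3R-only to at most 2704 CPM in CEBPA-first, while 6 stem and progenitor genes summed to 387 to 559 CPM in CSF3R-only and 519 to 596 CPM in CEBPA-first. In these bulk samples fewer cells of a type and less RNA per cell cannot be told apart, and the part of cell composition in the JAK and STAT results was not tested.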

How the data were processed

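RNA-seq counts of 11 samples were analysed. Per the study's methods, cDNA was made with a SMARTer low-input kit and sequenced as single reads, and the authors trimmed reads with Trimmomatic and aligned them with STAR. The deposited values are raw whole-number counts per mouse Ensembl gene, without normalization. The submitters' processing notes name mm10. The counting tool, its annotation and whether strand was used are not given in the sources used here, so overlapping genes may share reads. Every sample had 0 counts for 23409 of the 51912 genes.

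Symbols, positions and exon lengths came from the GENCODE annotation of GRCm38 and RefSeq tables, and 51633 identifiers had a symbol. Counts were normalized by TMM, filtered with filterByExpr (15703 genes kept) and tested in edgeR 4.0.16 (R 4.3.3) by the quasi-likelihood test in a fit of all 3 groups without covariates, with Benjamini-Hochberg adjustment. Thresholds followed the study, which used DESeq2: 0.05 for the adjusted p and, where stated, 1 for the absolute log2 fold change. SE is the log2 fold change over the square root of F. Log2 CPM used a prior count of 2. Shares were compared by two-sided exact permutation tests in scipy 1.17.1. Replicates differed by more than sampling noise (chi-square per degree of freedom at least 9.50), and none was merged. Coding sequences were aligned with BLAST 2.17.0; figures used matplotlib 3.10.9. The methods were tested on simulated data. In them edgeR recovered 49 of 66 changes of 0.5 log2 units, 63 of 67 of 1 and 67 of 67 of 2. Far fewer genes changed there than were called here, so the simulation does not show how normalization behaved in these data. Alternatives were DESeq2 1.42.0, other normalizations and filters, only the compared groups, a replicate block, Stat5a and Stat5b added up, other gene lengths and the removal of single samples.

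The member genes and the lists were chosen with earlier results of these data known. Beside the members, the text names Csf3r, Cebpa, the 3 largest rises and 3 largest falls of each pathway list in CEBPA-first against CSF3R-only (lists under 4 genes whole), and the 3 genes most correlated with the member that changed most. Other pathway genes are named as chosen later, and the single marker genes given with values also fall outside this rule. Some genes that this rule names are not reported here. Protein sequences were not analysed here.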

Additional observations from a re-analysis of the deposited data

Results flagged for a closer look

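In 3 of the 36 sets of 4 samples tested, the gap of the highest or lowest sample to its neighbour was larger than Dixon's 95% critical value for the group's range. Chance marks about 1 in 20 such sets, which makes 1.8 of 36. Jak2 was at 159 CPM in CEBPA-first replicate D, below the other 3 samples of the group, which reached up to 188 CPM. The share of Stat3 among the STATs was 34.4% in the same sample, the highest of its group, whose lowest share was 32.0%. The share of Jak3 among the kinases was 26.1% in CEBPA-first replicate C, against a lowest value of 23.5% in its group. CEBPA-first replicate D was the lowest sample of its group for 8 of the 9 members.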

How the results depend on the processing

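The 8 calls in CEBPA-first against CSF3R-only held in every alternative run. The number of members also beyond 1 log2 unit there was 2, and it was 1 after scaling to total counts, 1 without the filter on low counts and 1 to 2 when each sample was left out, since Stat6 lies at that threshold. In CSF3R-first against CSF3R-only the 7 calls became 3 without the filter and 3 to 8 with a sample left out. Over all genes 6240 of 28503 passed there without the filter, against 6703 of 15703 with it. With a sample left out, 0 to 1 members went beyond 1 log2 unit in this comparison. In CEBPA-first against CSF3R-first that number was 0 to 1 with a sample left out. The log2 fold change of Stat5a in CEBPA-first against CSF3R-only turned to 0.090 after scaling to total counts and to 0.031 without the filter, and in CEBPA-first against CSF3R-first it was -0.062 once Stat5a and Stat5b were added up, by construction. The cause of the other changes was not tested. Shares near no difference changed sign. For Jak2 in CEBPA-first against CSF3R-only the difference was 0.0064 percentage points with the longest transcript as length and 0.033 without a length correction. With a sample left out it was -0.31 to 0.15 there, -0.41 to 0.052 in CSF3R-first against CSF3R-only and -0.011 to 0.26 in CEBPA-first against CSF3R-first. The difference for Jak3 was -0.18 to 0.93, -0.48 to 1.12 and -0.69 to 0.91 percentage points in these comparisons. The replicate letters are shared between groups, but same-lettered samples did not deviate together throughout (correlations of -0.11 to 0.36, over 0.1 in 7 of 10 pairs), so they were not taken as pairs. With a replicate block 8, 7 and 7 members were lower in the 3 comparisons. Under the block Jak3 passed in CSF3R-first against CSF3R-only (log2 fold change -0.28, adjusted p = 0.023) and Stat5a did not (-0.14, adjusted p = 0.0514). Scaling to total counts changed the split of all calls in CSF3R-first against CSF3R-only from 3385 higher and 3318 lower genes to 4324 and 2658. The effect of depth on the members was not tested; Stat4 had the lowest counts.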
